A study of Mus musculus with 11 samples.

Results

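The AP-1 and MAF transcription factors described here are 9 genes, Fos, Jun, Junb, Jund, Fosl2, Atf3, Maff, Mafk and Maf, taken by name from a table of 12932 genes of sorted mouse alveolar macrophages. The list was set by gene name, with earlier results of these data known, and each name matched 1 row. RNA was sequenced in 11 libraries of 3 groups: mature alveolar macrophages (mAMs) of CD11cCre- Rxrabfl/fl littermates (mAM_WT, 4 libraries), mAMs of CD11cCre+ Rxrabfl/fl mice (mAM_KO, 4 libraries), and the CD11b+ SiglecF+ cells of those Cre-positive mice, named ImmAMs in the study (Imm_KO, 3 libraries). Both floxed genes, Rxra and Rxrb, encode retinoid X receptors, and the floxed alleles were carried by every animal, controls included. Cre was driven by Cd11c, which is active in alveolar macrophages and in dendritic cells. The mice were 9 wk old, were on a C57BL/6J background and were of both sexes, with no sex given per library. Each library was labelled as a separate biological replicate.

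AP-1 factors are dimers of basic leucine zipper proteins. A JUN protein pairs with itself, with a FOS protein or with an ATF protein, and the dimers bind the TPA response element or the cAMP response element. Fos, Jun, Junb and Atf3 are immediate early genes, whose transcripts rise within minutes of a signal or of stress during cell isolation and decay quickly. The small MAF proteins, MAFF, MAFG and MAFK, lack an activation domain and act as partners of the CNC factors (NFE2, NRF1, NRF2) and of the BACH repressors, whereas the large MAF protein c-MAF carries an activation domain and restrains self-renewal in macrophages. Alveolar macrophages are known for low c-MAF.

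Promoter sequence is shown for the member that fell in each of the comparisons (Maff), for Jun and Junb, which rose in ImmAMs, and for Fos, the typical immediate early gene. Each run covers the 250 bases before a RefSeq start site (GRCm38.p6), 5′ to 3′ on the strand of the gene. Capitals mark TGACGTCA (the cAMP response element), its part TGACGT, and TGACATCA, the variant known from Jun. The last pair of motifs was added after these sequences had been seen. For Maff, RefSeq lists 3 start sites, and the run before the middle start is shown because it alone holds TGACGTCA. It lies on the plus strand at chr15:79347270-79347519 and overlaps no annotated Maff exon. The Jun run is on the minus strand at chr4:95052223-95052472, the Junb run on the minus strand at chr8:84978749-84978998, and the Fos run on the plus strand at chr12:85473640-85473889.
Maff: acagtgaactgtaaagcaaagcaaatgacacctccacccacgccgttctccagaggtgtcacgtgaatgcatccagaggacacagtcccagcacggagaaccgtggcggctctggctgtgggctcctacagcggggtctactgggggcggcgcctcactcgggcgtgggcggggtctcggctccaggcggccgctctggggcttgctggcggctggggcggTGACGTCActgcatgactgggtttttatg
Jun: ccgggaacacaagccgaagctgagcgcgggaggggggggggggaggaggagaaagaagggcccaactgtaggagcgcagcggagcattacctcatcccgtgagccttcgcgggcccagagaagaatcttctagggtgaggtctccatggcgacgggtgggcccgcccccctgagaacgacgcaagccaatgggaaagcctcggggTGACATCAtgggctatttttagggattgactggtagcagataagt
Junb: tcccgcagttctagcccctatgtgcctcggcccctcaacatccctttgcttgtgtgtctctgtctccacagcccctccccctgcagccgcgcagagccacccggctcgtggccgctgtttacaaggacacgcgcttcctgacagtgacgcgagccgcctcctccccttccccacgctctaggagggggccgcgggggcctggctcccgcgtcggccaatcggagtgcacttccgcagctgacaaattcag
Fos: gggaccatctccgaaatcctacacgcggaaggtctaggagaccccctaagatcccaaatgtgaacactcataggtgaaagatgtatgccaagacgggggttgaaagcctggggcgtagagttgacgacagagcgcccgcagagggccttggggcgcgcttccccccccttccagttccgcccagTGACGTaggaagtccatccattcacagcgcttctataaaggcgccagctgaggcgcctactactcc

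The TGACGTCA match of Maff lay 22 to 29 bases before the start, and the same letters were in 1.55% of 32851 promoter windows of this length, on either strand. TGACGT was in 6.47% of windows, and it was present in Fos, 61 to 66 bases before the start, and in Atf3. TGACATCA, found in 2.93% of windows, lay 38 to 45 bases before the start both in Jun and before the last of the Maff starts. None of the 10 windows of the 8 members in the promoter table held TGACTCA (the TPA response element, in 4.46% of windows), AGGTCA (the site of RXR partners, in 14.0%), TGCTGAC (the core bound by MAF, in 3.81%) or a CArG box (the site of SRF, in 1.47%). The search was limited to these 250 bases, so sites farther upstream or elsewhere in a gene were not looked for. All 250 bases of the Fosl2 window lay within annotated Fosl2 exons. The Jund window ended at 70697738, well before the annotated Jund start at 70698949. These are letters in a window, and no binding was measured.

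Library depth ranged from 16659960 to 37873532 reads counted in genes. Whole-gene Rxra was at 310 to 380 CPM in mAM_WT, 334 to 351 CPM in mAM_KO replicates 1 to 3 and 283 to 305 CPM in ImmAMs. Rxrb was at 51.4 to 72.1, 39.3 to 52.8 and 31.9 to 35.2 CPM in the same order. In mAM_KO replicate 4, Rxra was at 419 CPM and Rxrb at 55.3 CPM. Whole-gene values do not resolve the deleted part of a gene and therefore do not check the genotype. The 3 mAM_KO libraries that the study used are replicates 1 to 3, and all tests here rest on those and the other 7 libraries, while values of mAM_KO replicate 4 are given beside them. Deposited values are normalized read counts scaled to a common library size (CPM) by the TMM method. Fold changes are differences of log2 CPM fitted with limma across 12889 genes, p-adj is the Benjamini-Hochberg value over all of them, and a gene was called at p-adj below 0.05. The 3 comparisons share groups with each other, so their results are not independent. No ImmAMs of control mice were sequenced here, so genotype and cell population cannot be told apart when ImmAMs are set against mAM_WT. In bulk RNA, fewer expressing cells and less RNA per cell cannot be told apart either.

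All 9 members passed the filter of 1 CPM in at least 3 of the 10 tested libraries. In the comparison of mAM_KO with mAM_WT, which asks what loss of RXR changes in mature cells, 1 of the 9 members fell and none rose, by limma, edgeR and DESeq2 alike, where 2.59% of all tested genes were lower and 2.25% higher. In ImmAMs against mAM_WT, 3 members rose and 1 fell, against 22.8% and 25.3% of all genes. In ImmAMs against mAM_KO, both from Cre-positive mice, 2 members rose and 1 fell, against 17.7% and 20.2% of all genes. Without adjustment, the number of members at p below 0.05 was 2, 6 and 6. Over all 12889 genes it was 3042, 7022 and 6011, so such p-values were common throughout. The median log2 difference of the 9 members was −0.05, 0.20 and 0.25 in the same order, beside 0.00, 0.00 and −0.01 over all genes.

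**Figure D1:**
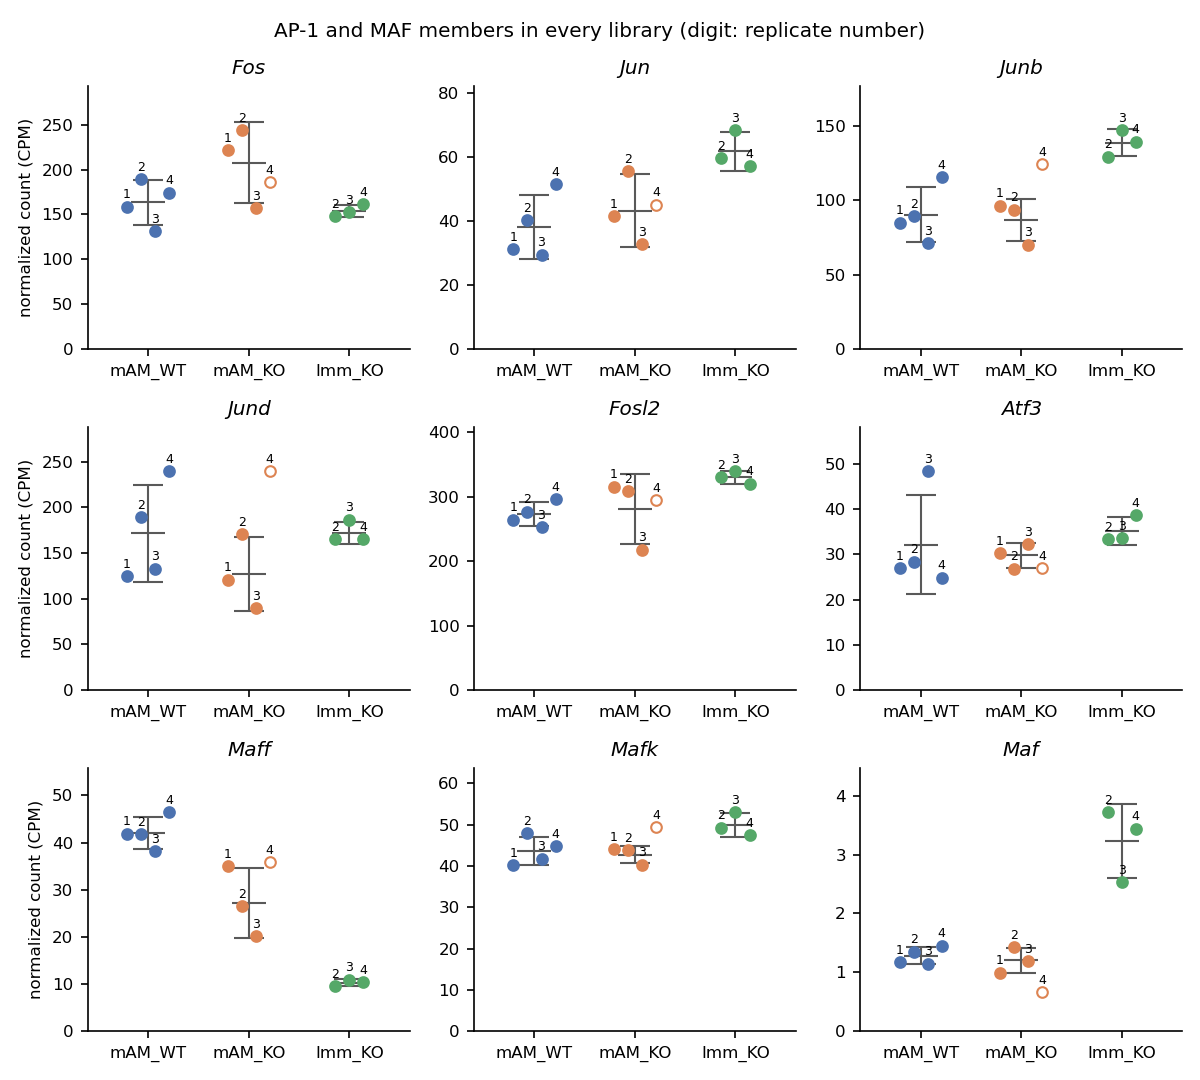
Normalized counts (CPM, linear axes from 0) of the 9 members in each of the 11 libraries. Points are libraries numbered by replicate, bars are the mean ± SD of the tested libraries, and open points are mAM_KO replicate 4, which was not in the tests. Maff steps down from mAM_WT to mAM_KO to Imm_KO with no overlap, and Maf, Jun and Junb are highest in Imm_KO.

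Maff (ENSMUSG00000042622, chromosome 15, 79346621 to 79359076, plus strand) encodes a small MAF protein. It was at 41.9, 41.8, 38.2 and 46.5 CPM in mAM_WT replicates 1 to 4, at 35.0, 26.5 and 20.2 CPM in mAM_KO replicates 1 to 3, and at 9.57, 10.9 and 10.3 CPM in Imm_KO replicates 2 to 4. Replicate 4 of mAM_KO was at 35.8 CPM. No 2 groups overlapped, with or without that library, and the mAM_KO libraries were the most dispersed. ImmAMs held 10.3 ± 0.679 CPM (SD, n = 3) against 42.1 ± 3.4 CPM (SD, n = 4) in mAM_WT, a drop to 0.244 of the control level (log2 −2.03, SE 0.153, limma p-adj = 2.25e-07). Against mAM_KO, Maff fell in ImmAMs by 1.37 on the log2 scale (SE 0.164, limma p-adj = 2.47e-05). Between mAM_KO and mAM_WT it fell by 0.66 (SE 0.153, limma p-adj = 0.0329). This last call did not hold once mAM_KO replicate 4 entered the fit (log2 −0.55, limma p-adj = 0.0882). It was also lost when replicate 3 of mAM_KO was left out (log2 −0.46, limma p-adj = 0.114), or replicate 2 or 4 of mAM_WT (limma p-adj = 0.0820 and 0.0688).

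The mAM_KO library with the least Maff, replicate 3, also had the highest summed monocyte markers of its group, 35.2 CPM over the 5 of 7 in the table against 20.4 and 20.8 CPM in replicates 1 and 2, and 14.9 to 20.9 CPM in mAM_WT. Its neutrophil list summed to 340 CPM over 6 of 7 markers, of which Mmp8, a neutrophil collagenase, made up 303 CPM, while mAM_WT libraries summed to 55.6 to 62.7 CPM. The study also counts Mmp8 among the core genes of alveolar macrophages. The neutrophil sums of mAM_KO replicates 1, 2 and 4 were 190, 113 and 157 CPM, all above mAM_WT. The interstitial macrophage list summed to 18.6 CPM in mAM_KO replicate 3 and to 6.67 to 8.52 CPM in mAM_WT, over 6 of 8 markers. Their part in the Maff result was not tested.

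Mafk (ENSMUSG00000018143, chromosome 5, 139791513 to 139802653, plus strand), the second small MAF gene among the members, was at 40.3, 47.9, 41.8 and 44.8 CPM in mAM_WT, at 44.1, 43.8 and 40.4 CPM in mAM_KO, with replicate 4 at 49.4 CPM, and at 49.3, 53.1 and 47.6 CPM in ImmAMs. The ImmAM values began just below the highest control value. The difference between ImmAMs and mAM_WT was 0.20 on the log2 scale (95% CI 0.02 to 0.38, limma p-adj = 0.0699) and that between mAM_KO and mAM_WT was −0.03 (95% CI −0.21 to 0.15, limma p-adj = 0.867).

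Maf (ENSMUSG00000055435, chromosome 8, 115682942 to 115707794, minus strand) encodes c-MAF and was by far the least abundant member. Its level was 1.18, 1.35, 1.15 and 1.45 CPM in mAM_WT and 0.992, 1.42 and 1.19 CPM in mAM_KO, with replicate 4 at 0.664 CPM. ImmAMs held 3.73, 2.53 and 3.44 CPM, and their lowest library lay above every mAM library. These values rest on 14 to 65 reads per library. Maf rose 2.50-fold in ImmAMs over mAM_WT (log2 1.32, SE 0.302, limma p-adj = 0.00287) and 2.68-fold over mAM_KO (log2 1.42, SE 0.323, limma p-adj = 0.00367). In mAM_KO against mAM_WT the difference was −0.10 on the log2 scale (95% CI −0.75 to 0.56, limma p-adj = 0.876).

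Among the JUN genes, Jun and Junb rose in ImmAMs. Junb (ENSMUSG00000052837, chromosome 8, 84974484 to 84978718, minus strand) encodes a JUN protein that binds less avidly to single sites than c-JUN. It was at 84.8, 89.2, 71.2 and 115 CPM in mAM_WT, at 96.1, 93.5 and 70.1 CPM in mAM_KO, with replicate 4 at 124 CPM, and at 129, 147 and 139 CPM in ImmAMs. The ImmAM libraries lay above every mAM library. The increase was 1.56-fold over mAM_WT (log2 0.64, SE 0.145, limma p-adj = 0.00283) and 1.61-fold over mAM_KO (log2 0.69, SE 0.155, limma p-adj = 0.00351), or 0.56 with mAM_KO replicate 4 (limma p-adj = 0.0206). Junb shares 173 exon bases, 7.52% of its own, with Prdx2 on the opposite strand, a peroxiredoxin gene that was at 85.8 to 103 CPM in all libraries (log2 −0.04 in ImmAMs against mAM_WT, limma p-adj = 0.668). The library kit marked strand, but the strand setting of the counting is not given in the sources used here.

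Jun (ENSMUSG00000052684, chromosome 4, 95049034 to 95052222, minus strand), which encodes c-JUN, was at 31.3, 40.2, 29.5 and 51.5 CPM in mAM_WT. It was at 41.6, 55.6 and 32.7 CPM in mAM_KO, with replicate 4 at 45.1 CPM, and at 59.6, 68.5 and 57.1 CPM in ImmAMs. All 3 ImmAM libraries exceeded the mAM libraries. Jun was 1.65-fold higher in ImmAMs than in mAM_WT (log2 0.73, SE 0.196, limma p-adj = 0.00807). Against mAM_KO the difference of 0.54 (95% CI 0.09 to 1.0) missed the threshold (limma p-adj = 0.0576) and passed it with mAM_KO replicate 4 in the fit (log2 0.52, limma p-adj = 0.0471). Jun shares 232 exon bases with Junos, a noncoding gene on the opposite strand that was at 1.10 to 4.60 CPM and rose in ImmAMs over mAM_WT (log2 1.66, SE 0.305, limma p-adj = 0.000619).

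Jund (ENSMUSG00000071076, chromosome 8, 70698949 to 70700616, plus strand), the JUN gene that many resting cells express, varied most. It was at 125, 189, 133 and 239 CPM in mAM_WT, at 121, 170 and 89.7 CPM in mAM_KO, and at 165, 187 and 165 CPM in ImmAMs. Replicate 4 of mAM_KO was at 240.1 CPM, the highest of the 11 libraries, and that group then spanned a 2.68-fold range. Groups overlapped in every comparison. The difference between mAM_KO and mAM_WT was −0.43 (95% CI −0.92 to 0.05, limma p-adj = 0.266) and went to −0.19 with replicate 4.

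**Figure D2:**
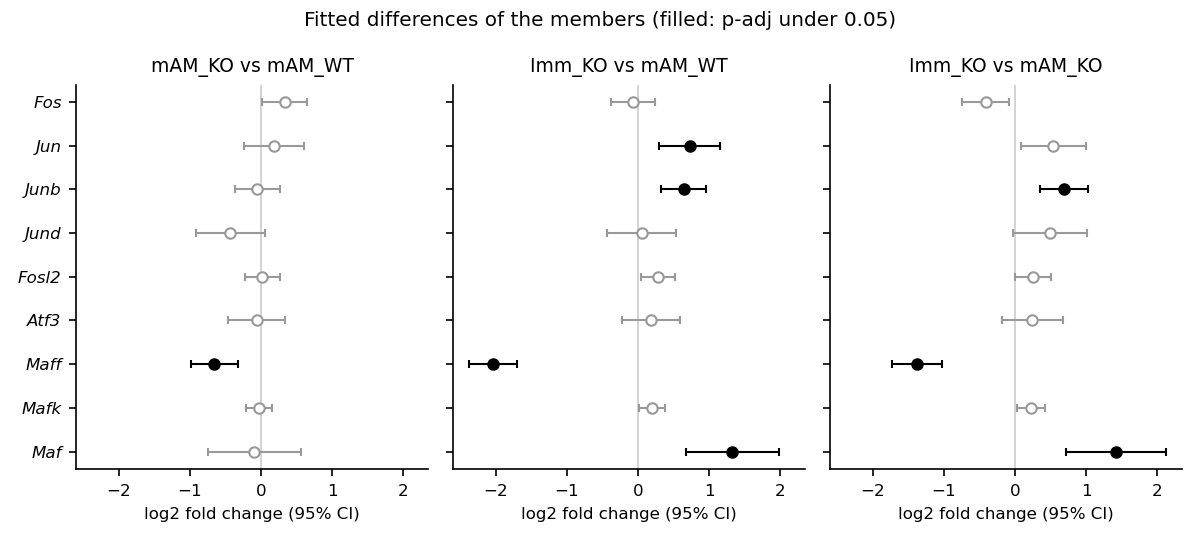
Fitted log2 fold changes (points) with 95% confidence intervals (bars) of the 9 members in the 3 comparisons, from 10 libraries. Filled points have p-adj below 0.05: Maff in all 3 panels, Maf and Junb in both ImmAM panels, and Jun in ImmAMs against mAM_WT.

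The FOS genes did not pass the test by limma in the 3 comparisons, though Fos against mAM_KO and Fosl2 lay close to the threshold. Fos (ENSMUSG00000021250, chromosome 12, 85473890 to 85477273, plus strand) was at 158.5, 190, 131 and 174 CPM in mAM_WT, at 222, 244 and 157 CPM in mAM_KO, with replicate 4 at 186 CPM, and at 148, 152 and 161 CPM in ImmAMs. Replicates 1 and 2 of mAM_KO were above every control library, and replicate 3 was within the control range. The difference between mAM_KO and mAM_WT was 0.33 (95% CI 0.02 to 0.64, unadjusted p = 0.0369 and limma p-adj = 0.179). ImmAMs differed from mAM_KO by −0.41 (95% CI −0.74 to −0.08, limma p-adj = 0.0520), and by −0.60 without mAM_KO replicate 3 (limma p-adj = 0.00330). That difference passed in 6 of 13 alternative fits (p-adj 0.0158 to 0.113), among them edgeR (p-adj = 0.0490) and DESeq2 (p-adj = 0.0158). Against mAM_WT the ImmAM difference was −0.07 (95% CI −0.38 to 0.24, limma p-adj = 0.697).

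Fosl2 (ENSMUSG00000029135, chromosome 5, 32135801 to 32157842, plus strand) encodes FRA-2, a FOS protein with a slower course than c-FOS. It was at 265, 277, 253 and 297 CPM in mAM_WT, at 316, 308 and 218 CPM in mAM_KO, with replicate 4 at 294.5 CPM, and at 331, 340 and 320 CPM in ImmAMs. The ImmAM libraries lay above all mAM libraries by a narrow margin. The difference to mAM_WT was 0.28 (95% CI 0.04 to 0.52), with limma p-adj = 0.0538, and it passed the threshold in 8 of 13 alternative fits (p-adj 0.00669 to 0.110).

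Atf3 (ENSMUSG00000026628, chromosome 1, 191170296 to 191218039, minus strand) encodes a stress-induced factor that represses inflammatory genes. It was at 26.9, 28.4, 48.5 and 24.8 CPM in mAM_WT, at 30.3, 26.8 and 32.2 CPM in mAM_KO, with replicate 4 at 26.9 CPM, and at 33.3, 33.6 and 38.7 CPM in ImmAMs. Replicate 3 of mAM_WT stood apart from the other control libraries. The difference between ImmAMs and mAM_WT was 0.18 (95% CI −0.22 to 0.59, limma p-adj = 0.449), and 0.40 without that library (limma p-adj = 0.0101).

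Levels of different genes were compared only per kb of annotated exon length. In mAM_WT, Jund (103 ± 32.1 CPM per kb, SD, n = 4) and Fos (69.5 ± 10.6) came first and their ranges overlapped. Junb (39.2 ± 8.0) and Fosl2 (28.2 ± 1.93) followed without overlapping Fos or each other, then Maff (16.2 ± 1.31), Atf3 (14.9 ± 5.10), Jun (12.0 ± 3.16) and Mafk (11.2 ± 0.872), whose ranges overlapped from each to the next. Maf was last at 0.155 ± 0.0175 CPM per kb. In ImmAMs the order was Jund (103 ± 7.36, n = 3), Fos (65.5 ± 2.88), Junb (60.2 ± 3.94) and Fosl2 (34.1 ± 1.04), and Maff had moved to the eighth place (3.96 ± 0.262), above Maf (0.392 ± 0.0759). Fos and Junb could not be ordered there, since the ranges of 63.0 to 68.6 and 56.1 to 63.9 CPM per kb overlapped.

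The spread between replicates differed among the members. The residual SD of log2 CPM within groups was 0.384 for Jund, higher than in 79.6% of the genes tested, 0.325 for Jun (75.4%) and 0.303 for Atf3 (73.6%). Junb (0.237), Maf (0.235), Fos (0.235) and Maff (0.231) lay between 64.6% and 65.5%, Fosl2 (0.174) at 50.1%, and Mafk (0.0931) at 14.6%. The median over all genes was 0.173. For Atf3 the value dropped to 0.119 without mAM_WT replicate 3, for Fosl2 to 0.0746 without mAM_KO replicate 3, and for Maff to 0.153 without mAM_KO replicate 3 and 0.150 without mAM_KO replicate 1. These are descriptions with no test.

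Within the mAM groups, several members tended to be low in the same libraries, and these were not only immediate early genes. Replicate 3 of mAM_WT was the lowest of its group for 6 members and replicate 3 of mAM_KO for 7, with Fos, Jun, Junb, Fosl2 and Maff low in both. Replicate 4 of mAM_WT was the highest for 6 members (Jun, Junb, Jund, Fosl2, Maff and Maf). Jund was 0.69 below its group mean in mAM_KO replicate 3 and 0.73 above it in mAM_KO replicate 4, on the log2 scale. Atf3 went the other way, being highest in both libraries in which Fos and Jun were lowest (0.65 above its mean in mAM_WT replicate 3, 0.15 in mAM_KO replicate 3). Junb was highest of its group in mAM_KO replicate 4, at 0.40 from its mean, where Fos was at −0.10.

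**Figure D3:**
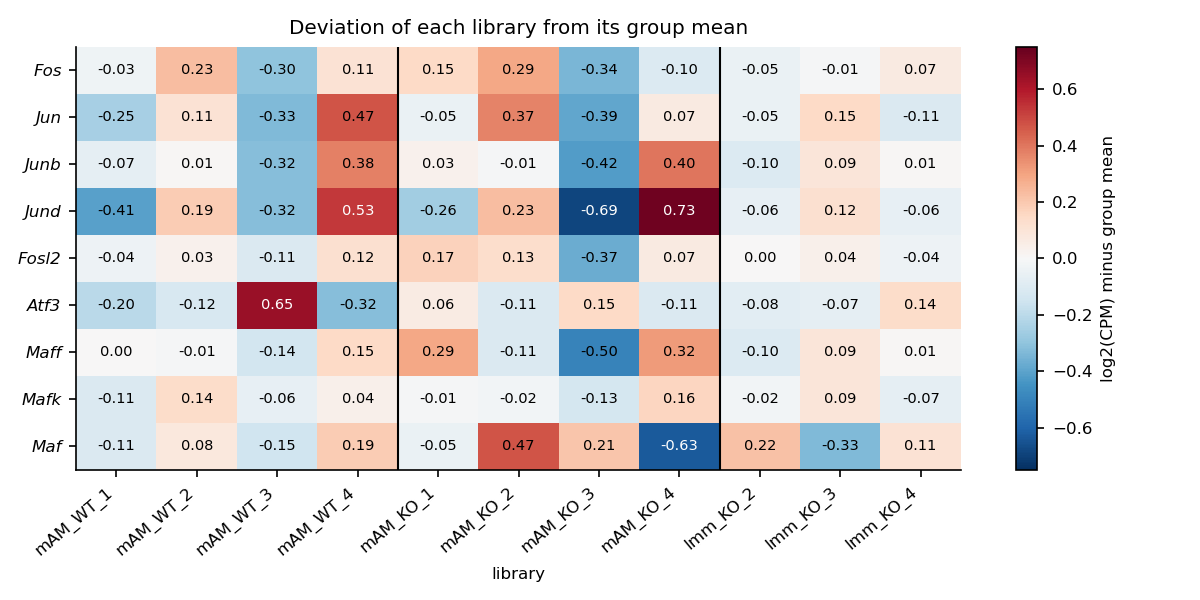
Deviation of each library (columns) from its group mean for each member (rows), as log2 CPM, with mAM_KO replicate 4 included. Blue is below and red above the mean. Replicate 3 of both mAM groups is blue for most members and red for Atf3, and the Imm_KO columns are pale.

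The heat shock genes induced during tissue dissociation gave summed levels of 4000 and 4047 CPM in replicate 3 of mAM_WT and of mAM_KO, the lowest of their groups, and of 6852 CPM in mAM_KO replicate 2, the highest library for Fos and Jun in that group. The sum of the other immediate early genes was lowest in the same replicates 3 (1590 and 1414 CPM). The labels and the study's methods differ on how cells were obtained, by lung digestion in the former and by lavage in the latter, and give no isolation time per library. Their part in the members' spread was not tested.

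For most members, the ImmAM libraries were the most alike. The SD of log2 CPM was smaller in ImmAMs than in mAM_WT for 8 of the 9 members, for example 0.0630 against 0.227 for Fos, 0.101 against 0.442 for Jund and 0.123 against 0.439 for Atf3. Maf was the exception (0.296 against 0.161). Over all genes the median SD was also smaller in ImmAMs, 0.131 against 0.172 in mAM_WT and 0.155 in mAM_KO. Each SD was also ranked by the percent of tested genes with a smaller SD in the same group. From mAM_WT to ImmAMs this rank fell for Fos (64.6 to 19.2), Jun (82 to 52.1) and Junb (74.7 to 34.8). It also fell for Jund (86 to 37.3), Atf3 (85.9 to 46.9) and Fosl2 (21.4 to 10.5). The rank rose for Maff (29 to 35.2), Mafk (27 to 28.5) and Maf (46.2 to 80). The share of all genes whose SD was smaller in ImmAMs than in mAM_WT was not counted, and these ranks were not tested.

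**Figure D4:**
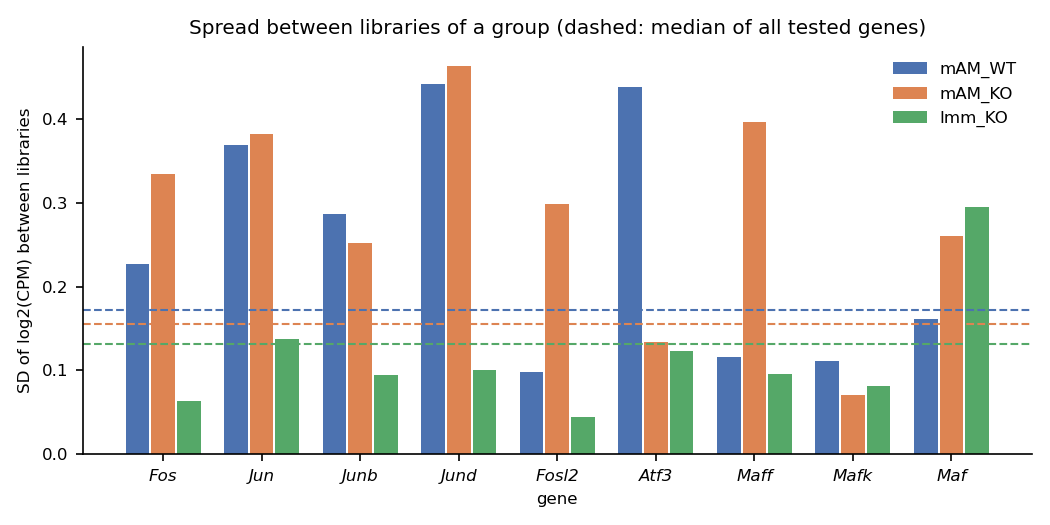
SD of log2 CPM between the tested libraries of each group (bars, mAM_WT n = 4, mAM_KO n = 3, Imm_KO n = 3), with dashed lines at the median SD of all tested genes in the group of that colour. Jund, Jun, Junb and Fos exceed the lines in both mAM groups, and all Imm_KO bars but those of Maf and Jun stay below the Imm_KO line.

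Of the other AP-1 family genes, Fosl1 is not in the table and 8 were tested. None passed the test in mAM_KO against mAM_WT by limma or edgeR and 1 by DESeq2, with 3 at an unadjusted limma p below 0.05 and the lowest p-adj, 0.0835, for Batf3. In ImmAMs against mAM_WT, 3 rose and 1 fell, with a list median of 0.19. Creb5, a CREB-related partner of JUN, rose from 51.0 ± 2.68 to 81.5 ± 7.89 CPM (log2 0.67, limma p-adj = 2.65e-05). Batf2 (log2 1.06, limma p-adj = 0.00649) and Atf7 (log2 0.29, limma p-adj = 0.00381) also rose. Batf, which pairs with JUN proteins and IRF4 or IRF8, fell from 29.0 ± 5.64 to 14.2 ± 1.10 CPM (log2 −1.01, limma p-adj = 0.000162). Fosb (−0.23), Batf3 (−0.57), Jdp2 (0.45) and Atf2 (0.09) did not pass.

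Of the other MAF genes and their partners, 6 were tested of 9 listed, and in ImmAMs against mAM_WT 4 rose and none fell, with a median log2 difference of 0.67. Nfe2, a CNC partner of the small MAFs, went from 8.11 ± 1.3 to 18.1 ± 4.08 and 60.1 ± 5.22 CPM in the 3 groups. It was the only gene of this list to pass in mAM_KO against mAM_WT (log2 1.15, limma p-adj = 0.00381). Mafg, the third small MAF gene, rose from 71.1 ± 14.0 CPM to 147 ± 5.50 CPM in ImmAMs (log2 1.07, limma p-adj = 1.50e-05), in the opposite direction to Maff. Bach2 (log2 2.76, limma p-adj = 3.13e-05) and Nfe2l2, which encodes NRF2 (log2 0.27, limma p-adj = 0.00536), rose as well. Bach1 (−0.01) and Nfe2l1 (−0.15) did not pass.

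Against mAM_KO, ImmAMs had 3 of these 6 genes higher, namely Bach2 (2.07), Nfe2 (1.75) and Mafg (0.92), and none lower. Of the 8 other AP-1 genes, Creb5 was higher (0.51) and Batf lower (−0.92).

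Other immediate early genes moved in both directions in ImmAMs, with 11 of 24 tested higher and 8 lower than in mAM_WT and a median of 0.13. Dusp5, an ERK phosphatase gene, fell from 131 ± 12.3 to 17.1 ± 1.47 CPM (log2 −2.93, limma p-adj = 5.63e-10). Ier3 rose by 3.72 (limma p-adj = 1.15e-05) and Socs3, a feedback inhibitor of cytokine signalling, by 2.91 (limma p-adj = 1.94e-07). Nr4a3, an orphan nuclear receptor gene of low level (0.302 to 0.911 CPM in mAM_WT and 1.23 to 3.73 CPM in ImmAMs), rose by 2.17 (limma p-adj = 0.00495). In mAM_KO against mAM_WT, 2 rose (Socs3 1.07, Zfp36l1 0.52) and 2 fell (Nr4a1 −0.81, Dusp5 −0.53), and with mAM_KO replicate 4 in the fit Socs3 alone passed (limma p-adj = 0.0227). None of 10 heat shock genes passed in mAM_KO against mAM_WT by limma, edgeR or DESeq2, with 1 at an unadjusted p below 0.05, and in ImmAMs 2 were lower than in mAM_WT (Hsp90aa1 −0.73, Hspd1 −0.28).

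Kinases and ternary complex factors upstream of AP-1 were also mixed. Of 16 genes, 3 were higher and 5 lower in ImmAMs than in mAM_WT, with a median of −0.14. Map3k1, a kinase of the JNK cascade, rose from 60.9 to 132 CPM (log2 1.12, limma p-adj = 9.34e-08), and Elk3, an ETS factor, rose by 0.76. Mapk3, which encodes ERK1, fell by 0.61 in ImmAMs (limma p-adj = 2.49e-05). In mAM_KO against mAM_WT, Map2k2 fell by 0.37 and Mapk3 by 0.30 (limma p-adj = 0.0253 and 0.0461), and neither passed with mAM_KO replicate 4 in the fit (limma p-adj = 0.367 and 0.174).

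**Figure D5:**
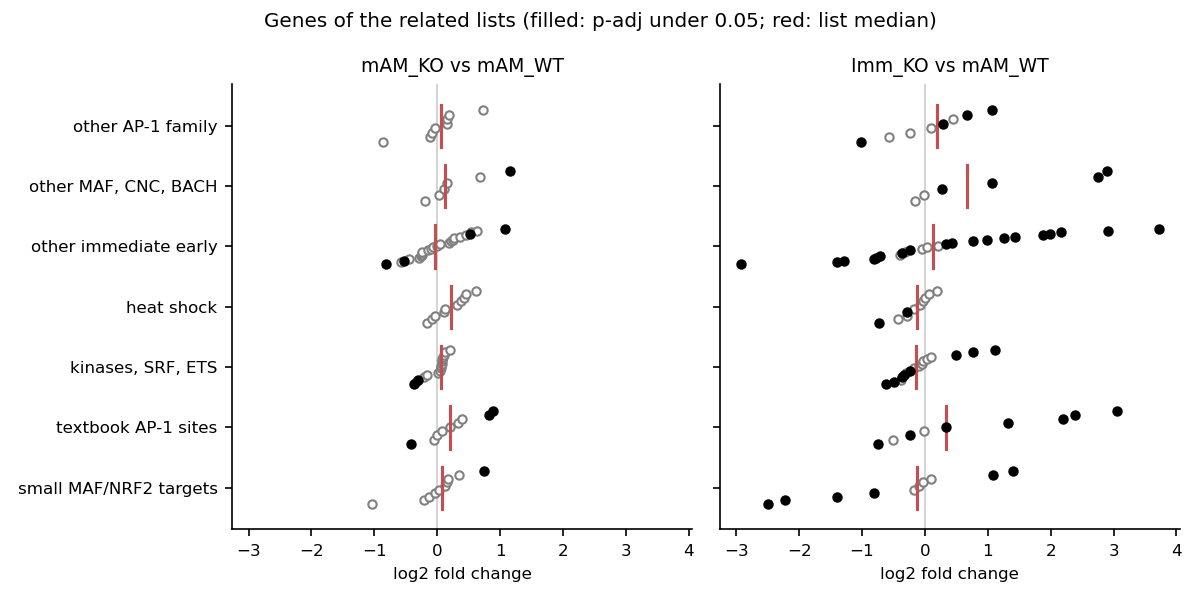
Log2 fold changes of the genes in 7 related lists (points, filled at p-adj below 0.05) with the list medians (red bars), for mAM_KO and for ImmAMs against mAM_WT. Points cluster near 0 on the left and spread to both sides on the right, from −2.93 for Dusp5 to 3.72 for Ier3.

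Genes with textbook AP-1 sites divided in ImmAMs, with 5 of 9 tested higher and 2 lower than in mAM_WT (median 0.33). Plau, the urokinase gene, was at 18.0 ± 4.05 CPM in mAM_WT, 31.5 ± 6.54 CPM in mAM_KO and 92.7 ± 4.26 CPM in ImmAMs, and rose in ImmAMs by 2.39 (limma p-adj = 1.14e-07) and in mAM_KO by 0.82 (limma p-adj = 0.0197). Ccnd1, which encodes cyclin D1, rose by 3.05 in ImmAMs and Il1b by 2.19. Cxcl2, a chemokine gene, rose by 1.33 (limma p-adj = 0.0414). In mAM_KO against mAM_WT, Ccnd1 (0.89) and Plau were higher and Tgfb1 (−0.41) was lower, the last not with replicate 4 in the fit (limma p-adj = 0.147).

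Of 10 genes regulated through small MAF and NRF2, 2 were higher and 4 lower in ImmAMs than in mAM_WT, with a median of −0.13. Slc7a11, the cystine transporter gene, rose by 1.40 in ImmAMs (limma p-adj = 4.89e-08) and by 0.75 in mAM_KO (limma p-adj = 0.00129), and it was the only gene of the list called in mAM_KO. Nqo1 (−2.49), Me1 (−2.22) and Hmox1 (−1.40) fell in ImmAMs. Nqo1 and Me1 were of low level, with means of 2.40 and 3.23 CPM in mAM_WT and 0.450 and 0.752 CPM in ImmAMs. Hmox1 went from 265 ± 70.9 to 97.6 ± 0.386 CPM. Hmox1, which encodes heme oxygenase, is repressed by BACH1 with a small MAF.

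Macrophage genes tied to c-MAF in earlier work were 9 tested of 13 listed. In ImmAMs 5 were higher than in mAM_WT (C1qa, C1qb, C1qc, Stab1 and Cd163) and 3 lower (Mertk −0.85, Mrc1 −0.73, Selenop −0.61). C1qa, a complement subunit gene, was at 24.5 to 29.8 CPM in ImmAMs and at 0.0132 to 0.0737 CPM in mAM_WT, levels that stand for 0 or a few reads. Stab1, a scavenger receptor gene, was at 20.5 to 24.3 CPM in ImmAMs and 0.0938 to 0.623 CPM in mAM_WT. None passed in mAM_KO against mAM_WT by limma, where 3 had an unadjusted p below 0.05, while edgeR called 1 and DESeq2 called 2.

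ImmAMs also differed in their cell type markers, and these values stand beside each of their results above. The interstitial macrophage list, which shares Ms4a7, Cd163 and the C1q genes with lists above, summed to 216 to 233 CPM in ImmAMs, the monocyte list to 259 to 263 CPM and the neutrophil list to 903 to 976 CPM, of which Mmp8 gave 851 to 914 CPM. Neutrophil S100a8 was at 10.7 to 16.6 CPM, Itgam (CD11b) at 168 to 174 CPM against 3.52 to 3.86 CPM in mAM_WT, and Siglecf, the marker of the sort, at 19.3 to 19.7 CPM against 244 to 264 CPM. The 11 alveolar macrophage markers were all in the table, 8 of them lower and 2 higher in ImmAMs than in mAM_WT. No T cell, eosinophil or endothelial marker of the lists was in the table, and of the 5 alveolar type 2 cell markers only Abca3 was. The part of these differences in the results on the AP-1 and MAF genes was not tested.

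The genes whose log2 values followed Fos most closely over the 11 libraries, with group means removed, were Tbc1d14 (Pearson r = 0.948), Lpin1 (0.941), Zfp324 (0.936), Foxk2 (0.935) and Gm14023 (0.921). For Maf, with values as they are, they were Gm13391 (0.956), Tmem243 (0.948), Sc5d (0.946), Hivep2 (0.942) and Zfp516 (0.939), each at a higher mean in ImmAMs than in either mAM group. These are the highest of 12932 genes in 11 libraries that share the same scaling, and they are given as descriptions with no test.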

How the data were processed

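RNA from sorted alveolar macrophages was sequenced in 11 libraries (4 mAM_WT, 4 mAM_KO, 3 Imm_KO). As the authors describe, reads were trimmed with Cutadapt, mapped to the GRCm38 transcriptome and counted with RSEM 1.3.1, scaled by TMM in limma, and filtered at 1 CPM in at least 3 samples. The deposited values are CPM, with 0.5 added to each count. Within 0.01, 100.0% of the values were whole reads, so reads could be recovered. Log2 CPM of 10 libraries, without mAM_KO replicate 4, which the study did not use, was fitted with limma 3.58.1 (R 4.3.3, variance trend, 3 group means, no covariates), tested on simulated data. The recovered reads were refitted with edgeR 4.0.16, which called 566, 6094 and 4804 genes in the 3 comparisons, and with DESeq2 1.42.0. Deviations of libraries with the same replicate number correlated from −0.129 to 0.246, and those with different numbers from −0.279 to 0.229. Whether the same numbers mark the same mice cannot be told from these values, and the main fit took the libraries as unpaired. The members, the gene lists and the rule for naming genes were chosen with earlier results of these data known, and 2 genes of the lists are not reported here. All members were named, up to 4 called genes with the largest differences from each list, all genes of the other AP-1 and other MAF lists, and the 5 genes most like Fos and Maf. Exon lengths and positions came from GENCODE vM21 (GRCm38), where 12919 of 12932 genes were found, and promoters from RefSeq. In 60-base windows of the transcripts, 0.11% of Maf windows and none of the other members' windows recurred in another gene.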

Additional observations from a re-analysis of the deposited data

Results flagged for a closer look

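Atf3 in mAM_WT was the only result of the 18 tested (9 members in the groups of 4 libraries) with a library far from the others. Replicate 3 was at 48.5 CPM and the other 3 between 24.8 and 28.4 CPM, a gap of 0.848 of the group's range, above Dixon's 95% critical value for 4 libraries. Chance alone gives such a gap in about 1 of 20 groups, and 1 of 18 was found here. The same library was the lowest of its group for Fos, Jun, Junb, Fosl2, Maff and Maf. Without it, Atf3 was higher in ImmAMs than in mAM_WT (log2 0.40, limma p-adj = 0.0101), and its residual SD was 0.119 in place of 0.303. The cause was not tested.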

How the results depend on the processing

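Over 13 other fits, the calls of Maff, Maf, Jun and Junb in ImmAMs against mAM_WT, and of Maff, Maf and Junb in ImmAMs against mAM_KO, kept their direction and stayed past the threshold, except that Maf was not tested under the filter at 5 CPM. The call of Maff in mAM_KO was lost, leaving 0 members called, with all 11 libraries (337 genes called of 12932), with the ImmAM libraries left out of the fit (195), with 1 prior variance for all genes (122) and with the replicate block (174), while DESeq2 called 1352 genes. The called genes were 205 higher and 132 lower with all 11 libraries, 76 and 46 with 1 prior variance, and 109 and 65 with the block. Leaving out each replicate gave 162 (without mAM_KO replicate 3) to 861 genes (without mAM_WT replicate 1) and 0 to 1 members there, and 3 to 5 members in ImmAMs against mAM_KO, where quantile normalization and DESeq2 called 6 and the fit without mAM_WT 5. Differences that changed sign were near 0 and not called. In mAM_KO against mAM_WT, Junb was at 0.08 with all 11 libraries and 0.01 with the block, and Mafk at 0.02 with all 11 libraries. Leave-one-out values there ran from −0.01 to 0.37 for Jun, −0.16 to 0.09 for Junb, −0.07 to 0.20 for Fosl2, −0.17 to 0.16 for Atf3, −0.07 to 0.02 for Mafk and −0.23 to 0.03 for Maf. In ImmAMs against mAM_WT, Fos was at 0.01 under quantile normalization and 0.00 to −0.17 when 1 replicate was left out, and Jund at −0.03 with the block and −0.08 to 0.23 when 1 replicate was left out. The causes were not tested. The block moved no member call other than those of Maff in mAM_KO and Fos in ImmAMs against mAM_KO (log2 −0.42, limma p-adj = 0.0341). Deviations correlated above 0.1 in 2 of 10 same-numbered pairs and in 5 of 30 differently numbered pairs. At this replication, the 95% intervals in mAM_KO against mAM_WT still reached −0.92 for Jund and −0.75 to 0.56 for Maf, the member with the fewest reads.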
